A study of Mus musculus with 6 samples.

Results

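The genes described here are 41 transcripts known from macrophages, neutrophils and antigen-presenting cells, measured in RNA from mouse CD4+ T cell preparations grown as interleukin-9-producing helper T cells (Th9). They were chosen by gene symbol from a fixed list, without using a measured value in the rule, and make up 41 of the 23091 symbols in the deposited expression files. All 41 were found, with 1 entry per gene and an acceptable status in each of the 6 files. They were sorted by role into 14 macrophage and phagocyte lysosome genes, 11 surface receptors, adaptors and oxidase genes of myeloid cells, 11 neutrophil genes and 5 genes of MHC class II.

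Naive CD4 T cells from the spleen and nodes of C57/Bl6j mice, wild-type and 7 weeks old, were activated on plates coated against CD3 and CD28. All 6 groups received TGFb at 2 ng/ml, IL-4 at 20 ng/ml and an antibody that blocks IFNgamma, and IL-1b at 10 ng/ml was added in 1 of the 2 arms. Cells were taken at 1 h (RNA depleted of ribosomal RNA), at 3 days (day 3, poly(A)-selected RNA), or after 3 days of culture followed by injection of the CD45.2 cells into CD45.1 mice and sorting 1 week later (in vivo, poly(A)-selected RNA). Each of the 6 groups, 3 stages by 2 arms, was 1 library, so a difference between 2 libraries has no replicate check. The sources used here do not state the tissue from which the injected cells were recovered, the number of mice or the purity of each preparation.

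Lysozyme, the C1q complement subunits and apolipoprotein E are among the most abundant products of tissue macrophages. The alarmins S100a8 and S100a9, the iron-binding protein Lcn2 and the granule proteins Ngp, Camp and Ltf are made by neutrophils and their precursors. MHC class II molecules present peptides to CD4 T cells and are made by B cells, dendritic cells and macrophages, while mouse T cells make little of them. Transcripts of these 3 kinds in a T cell preparation can therefore come from other cells. In bulk RNA more cells of a type and more RNA per cell cannot be told apart. The role names used here are labels and do not assign the RNA to a cell type. Markers of epithelium, given below, were also high in vivo, and their part in the members' values was not tested.

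Expression was deposited as FPKM (fragments per kilobase of transcript scaled to the total of mapped fragments), a level per transcript length, with a lower and an upper bound for each value. A symbol was compared between 2 libraries where the larger value was at least 5 FPKM. It was counted as higher or lower where the ratio of (FPKM + 1) was at least 2 and the 2 deposited intervals did not overlap. This is a rule of size and gives no p-value. Between 631 and 765 symbols reached 5 FPKM in the 1 h libraries, against 7313 to 8154 in the other 4, and the median half-width of the deposited interval was 69.9% and 42.1% of the value at 1 h against 23.4% to 27.0% elsewhere. The ribosomal RNA entry Rn45s took 41.3% and 24.7% of all FPKM at 1 h and at most 0.0657% elsewhere. The 12 T cell markers, among them Cd3e, Cd4 and Lck, summed to 2480 to 2932 FPKM in the 4 poly(A) libraries and to 87.7 and 112 FPKM at 1 h, and none was listed at 0 in vivo.

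As a sum, the members were lower at day 3 than in vivo, with exceptions among single genes given below. Their summed level was 156 and 193 FPKM at 1 h, 258 and 319 FPKM at day 3, and 1719 and 3720 FPKM in vivo, in each case without and with IL-1b. Set against the T cell marker sum of the same library, this was 9.75% and 10.9% at day 3 and 67.1% and 150% in vivo. At 1 h it was 178% and 172%, where the T cell sum was itself low. Which genes carried the sum differed between stages. Cd74, the invariant chain of MHC class II, gave the most in the 4 cultured libraries, from 31.8% to 53.7% of the sum, and Lyz2, a lysozyme gene, gave the most in vivo, with 30.3% and 43.4%.

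**Figure D1:**
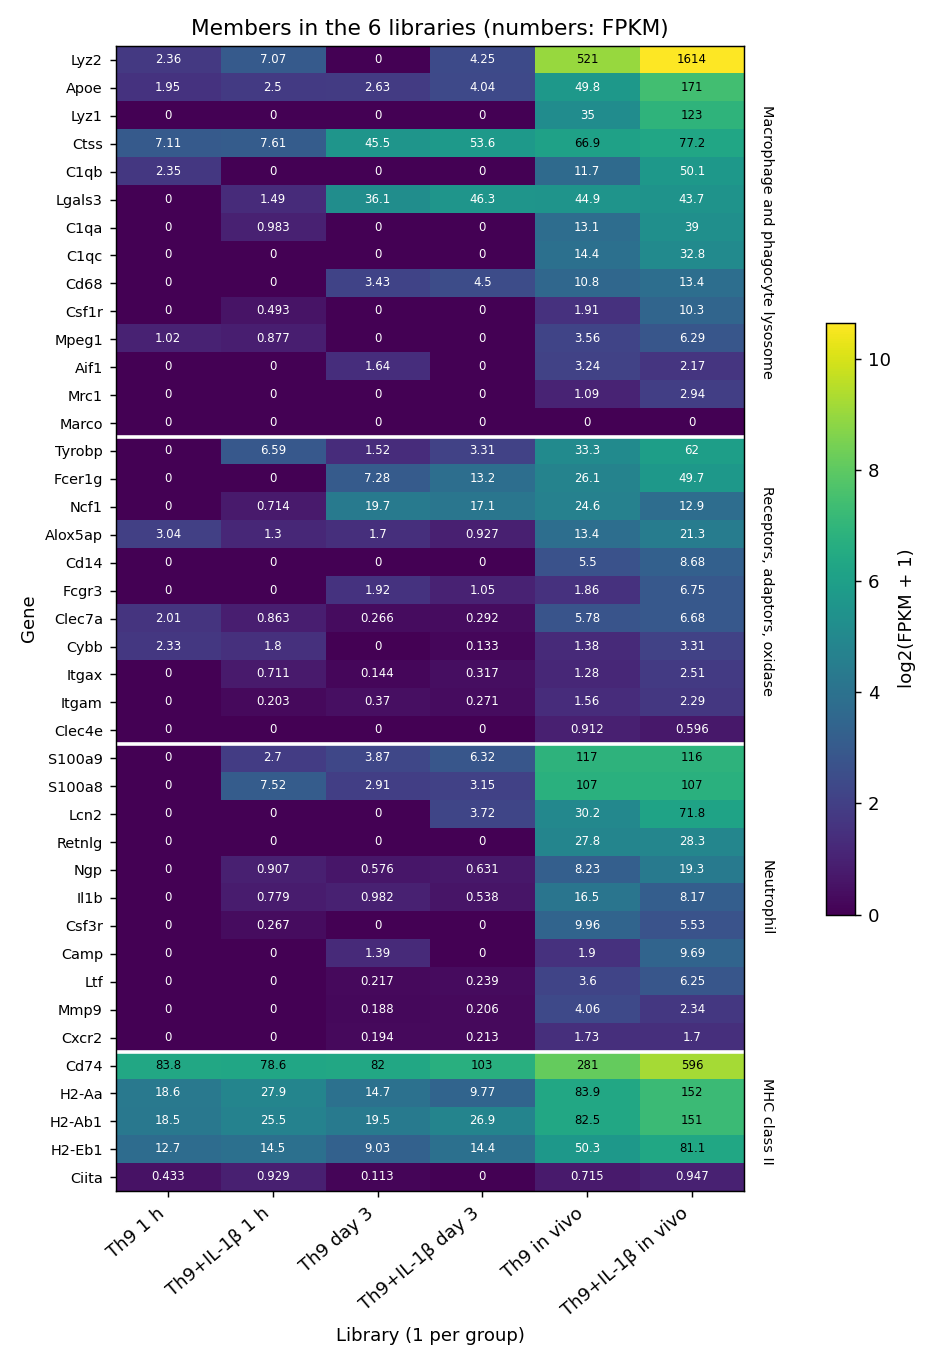
FPKM of the 41 members (rows, by role group and then by highest value) in the 6 libraries (columns, 1 per group), with colour giving log2(FPKM + 1) and the printed number the FPKM. In the day 3 columns 15 of the 41 members are listed at 0 in each library, and in the in vivo columns 1 member, Marco, is.

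**Figure D2:**
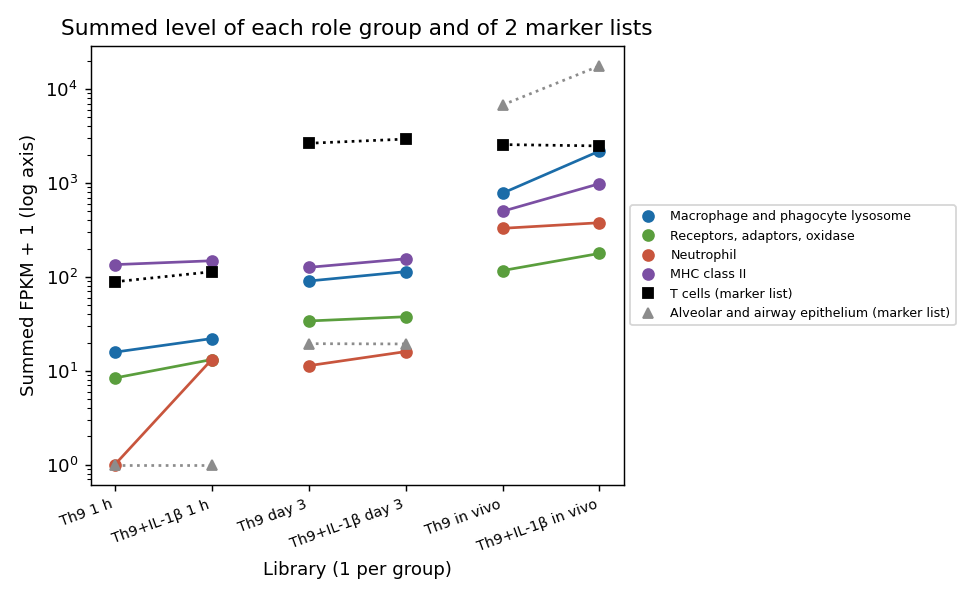
Summed FPKM + 1 (log axis) of each role group in the 6 libraries, with the summed T cell markers and the summed alveolar and airway epithelium markers for comparison; lines join the 2 arms of a stage. The neutrophil sum stands at 10.3 and 15.0 FPKM at day 3 and at 328 and 376 FPKM in vivo, while the T cell sum stands at 2645 and 2932 and at 2562 and 2480 FPKM.

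The first comparison set the in vivo libraries beside the day 3 libraries of the same arm. Without IL-1b, 21 of the 41 members were higher in vivo and none was lower, where 2.13% of all 8126 compared symbols were higher and 0.665% lower. With IL-1b, 27 were higher and none was lower, where 12.0% of 8572 symbols were higher and 5.87% lower. The 21 members counted without IL-1b were also counted with it. Many members were compared only because their in vivo value reached 5 FPKM, so these counts describe the members and are no test. Of the members counted, 9 and 10 were listed at 0 in a library of the comparison, so their ratios rest on the added 1, and with symbols listed at 0 left out the counts were 12 and 17. In 37 of the 41 members both in vivo values lay above both day 3 values. The 4 others were Marco, listed at 0 throughout, and Fcgr3, Lgals3 and Ncf1. Among symbols with at least 5 FPKM in 1 of these 4 libraries, 28 of 31 members had this order, against 22.1% of all 8901. Of these 31, 22 entered only through their in vivo values, so the filter largely fixed the order and nothing is read from it.

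Lyz1 and Lyz2 encode lysozyme, the enzyme that cleaves bacterial cell walls, and lie side by side on chromosome 10 (Lyz2 at chr10:116714597-116719328 and Lyz1 at chr10:116724851-116729924 in mm9, whole genes with exons and introns). Their RefSeq promoters, from 250 bases before to 50 bases after the start of the gene (GRCm38.p6, minus strand, chr10:117292819-117293118 for Lyz1 and chr10:117282223-117282522 for Lyz2), are shown because both genes were highest in vivo. Capitals mark ACTTCC, a core sequence bound by PU.1 and other ETS factors, which lay 94 bases before the start in both.
Lyz1: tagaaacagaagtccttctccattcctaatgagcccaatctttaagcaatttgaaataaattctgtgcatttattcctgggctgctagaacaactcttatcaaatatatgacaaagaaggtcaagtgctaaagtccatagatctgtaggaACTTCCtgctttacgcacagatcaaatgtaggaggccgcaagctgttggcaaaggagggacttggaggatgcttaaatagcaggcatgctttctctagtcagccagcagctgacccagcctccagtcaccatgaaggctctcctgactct
Lyz2: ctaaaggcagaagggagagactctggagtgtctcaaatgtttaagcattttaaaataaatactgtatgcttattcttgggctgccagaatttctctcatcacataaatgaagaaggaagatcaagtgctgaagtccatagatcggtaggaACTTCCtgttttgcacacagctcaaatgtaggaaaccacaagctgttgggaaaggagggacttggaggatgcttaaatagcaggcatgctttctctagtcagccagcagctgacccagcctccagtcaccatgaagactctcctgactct
The 2 promoters were identical at 83.6% of aligned bases. ACTTCC or its reverse complement GGAAGT was found in 23.8% of the 32851 windows of this length, or in 26.5% of 27025 symbols. Among the 32 members with a window it was found in 12, so it is a common match.

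Lyz2 was at 2.36 and 7.07 FPKM at 1 h, was listed at 0 and stood at 4.25 FPKM at day 3, and reached 521 and 1614 FPKM in vivo, without and with IL-1b. In the in vivo library with IL-1b it ranked 14 among all symbols by FPKM. Lyz1 was listed at 0 in all 4 cultured libraries and stood at 35.0 and 123 FPKM in vivo. The in vivo libraries thus lay far above the cultured ones for both genes. The annotated transcripts of the pair are identical at 96.0% of 1262 aligned bases and share 16.1% of 50-base windows, and the sources used here do not say how reads that match both were assigned, so their separate values are uncertain. Summed, the pair gave 556 and 1737 FPKM in vivo, of which Lyz1 held 6.30% and 7.06%. Both in vivo values of Lyz2 lie above the upper bounds deposited with them (465 and 1340 FPKM). The same holds for S100a8 and S100a9 in both in vivo libraries and for Tyrobp, H2-Aa, H2-Ab1 and Apoe in the library with IL-1b, so the deposited intervals of these 7 genes do not bracket their values.

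Apoe, which carries lipids out of macrophages and other cells, stood at 1.95 and 2.50 FPKM at 1 h, 2.63 and 4.04 FPKM at day 3, and 49.8 and 171 FPKM in vivo. The 3 subunits of C1q, the recognition part of the classical complement pathway, were listed at 0 in both day 3 libraries. In vivo C1qa was at 13.1 and 39.0 FPKM, C1qb at 11.7 and 50.1 FPKM and C1qc at 14.4 and 32.8 FPKM. Csf1r, the receptor for macrophage colony-stimulating factor, was listed at 0 at day 3 and stood at 1.91 and 10.3 FPKM in vivo. These 5 genes stood at or under 4.04 FPKM in the cultured cells and were counted as higher in vivo in both arms, except Csf1r, which was counted with IL-1b only.

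The other macrophage and phagocyte genes did not all share this pattern. The lysosomal protease Ctss was at 7.11 and 7.61 FPKM at 1 h, 45.5 and 53.6 FPKM at day 3 and 66.9 and 77.2 FPKM in vivo. The galectin Lgals3 was listed at 0 and stood at 1.49 FPKM at 1 h, was at 36.1 and 46.3 FPKM at day 3 and was at 44.9 and 43.7 FPKM in vivo. Neither differed between day 3 and in vivo by the rule of size, and both were already at 36.1 FPKM or more at day 3. Cd68, a lysosomal glycoprotein, stood at 3.43 and 4.50 FPKM at day 3 and 10.8 and 13.4 FPKM in vivo. The in vivo values of Mpeg1, a pore-forming protein of phagocytes, were 3.56 and 6.29 FPKM, and those of Mrc1, the mannose receptor, were 1.09 and 2.94 FPKM, after 0 in both day 3 libraries. Aif1 stayed at or under 3.24 FPKM in all 6 libraries. Marco, a scavenger receptor of alveolar and other macrophages, was listed at 0 in all 6, so 1 of the 14 macrophage genes gave no signal at any stage.

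Among the receptors and adaptors, Tyrobp, the signalling adaptor of many myeloid receptors, was listed at 0 and at 6.59 FPKM at 1 h, at 1.52 and 3.31 FPKM at day 3 and at 33.3 and 62.0 FPKM in vivo. Fcer1g, the common gamma chain of Fc receptors, was listed at 0 in both 1 h libraries and stood at 7.28 and 13.2 FPKM at day 3 and 26.1 and 49.7 FPKM in vivo. Cd14, the co-receptor for bacterial lipopolysaccharide, was listed at 0 in all 4 cultured libraries and stood at 5.50 and 8.68 FPKM in vivo. These 3 genes had their highest values in vivo. Ncf1, a cytosolic subunit of the phagocyte oxidase, was instead at 19.7 and 17.1 FPKM at day 3 and at 24.6 and 12.9 FPKM in vivo. Alox5ap, which serves leukotriene synthesis, rose from 1.70 and 0.93 FPKM to 13.4 and 21.3 FPKM, and Clec7a, the receptor for fungal beta-glucan, from 0.27 and 0.29 FPKM to 5.78 and 6.68 FPKM. The integrins Itgam and Itgax, Clec4e and the oxidase subunit Cybb did not pass 3.31 FPKM in any library, and Fcgr3 passed 5 FPKM only in vivo with IL-1b, at 6.75 FPKM.

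All 11 neutrophil genes were listed at 0 in the 1 h library without IL-1b, and all 11 were above 1 FPKM in both in vivo libraries. S100a8 was at 7.52 FPKM at 1 h with IL-1b, 2.91 and 3.15 FPKM at day 3 and 107.2 and 106.8 FPKM in vivo. S100a9 was at 2.70 FPKM at 1 h with IL-1b, 3.87 and 6.32 FPKM at day 3 and 116.7 and 116.2 FPKM in vivo. The 2 in vivo libraries were at nearly the same level for both genes, and both lay above all cultured ones. Lcn2 was listed at 0 in 3 of the 4 cultured libraries, stood at 3.72 FPKM at day 3 with IL-1b and reached 30.2 and 71.8 FPKM in vivo. Retnlg, a resistin-like protein of neutrophils, was listed at 0 in culture and stood at 27.8 and 28.3 FPKM in vivo. Csf3r, the receptor for granulocyte colony-stimulating factor, and Il1b, which encodes IL-1b itself, were under 1 FPKM in all cultured libraries and at 9.96 and 5.53 FPKM and 16.5 and 8.17 FPKM in vivo. The granule genes Ngp, Camp and Ltf were at 8.23 and 19.3, 1.90 and 9.69, and 3.60 and 6.25 FPKM in vivo, while Cxcr2 and Mmp9 stayed between 1.70 and 4.06 FPKM there.

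The MHC class II genes were among the members already present in culture. H2-Aa, H2-Ab1 and H2-Eb1 encode chains of class II molecules and lie in the class II region of chromosome 17 (chr17:34400172-34453619 from H2-Ab1 to H2-Eb1 in mm9). The RefSeq promoters of 2 of them are shown, H2-Aa and H2-Eb1, the 2 members whose windows hold the motif marked in capitals. They lie on the minus strand at chr17:34287774-34288073 for H2-Aa and on the plus strand at chr17:34305617-34305916 for H2-Eb1 (GRCm38.p6). The presence of the motif in both is therefore no finding. Both genes were higher in vivo in both arms, as were H2-Ab1 and Cd74. Capitals mark CTGATTGG, the core of the Y box, an element known from class II promoters, which lay 43 bases before the start in H2-Aa and 54 bases before it in H2-Eb1.
H2-Aa: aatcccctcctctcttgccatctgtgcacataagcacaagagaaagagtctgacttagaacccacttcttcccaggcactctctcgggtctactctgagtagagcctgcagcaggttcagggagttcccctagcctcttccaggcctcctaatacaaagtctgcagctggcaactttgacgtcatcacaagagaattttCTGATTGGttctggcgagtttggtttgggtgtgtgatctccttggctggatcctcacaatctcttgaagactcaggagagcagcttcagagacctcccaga
H2-Eb1: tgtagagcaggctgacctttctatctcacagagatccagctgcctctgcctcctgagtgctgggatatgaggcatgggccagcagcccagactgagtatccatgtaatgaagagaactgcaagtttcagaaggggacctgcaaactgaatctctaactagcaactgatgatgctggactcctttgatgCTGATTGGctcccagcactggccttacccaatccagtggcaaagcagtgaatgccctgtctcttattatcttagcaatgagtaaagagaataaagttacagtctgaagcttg
The 2 windows were identical at 56.1% of aligned bases. CTGATTGG or CCAATCAG was found in 4.10% of all windows, or in 4.70% of 27025 symbols. H2-Aa and H2-Eb1 were the only members with it among the 32 that had a window. No member's window held both this motif and ACTTCC.

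H2-Aa was at 18.6 and 27.9 FPKM at 1 h, 14.7 and 9.77 FPKM at day 3 and 83.9 and 152 FPKM in vivo. H2-Ab1 was at 18.5 and 25.5, 19.5 and 26.9, and 82.5 and 151 FPKM. Cd74 was at 83.8 and 78.6, 82.0 and 103, and 281 and 596 FPKM. As deposited, the values at 1 h and day 3 were alike within their intervals for H2-Ab1 and Cd74, and the in vivo values were above both. H2-Eb1 followed the same course, with 9.03 and 14.4 FPKM at day 3 and 50.3 and 81.1 FPKM in vivo. RNA selection differed between 1 h and the later stages, so the likeness of 1 h and day 3 does not show an unchanged level. After scaling to a median ratio of 1, day 3 over 1 h was -3.33 and -2.81 on the log2 scale for Cd74. For H2-Ab1 it was -2.81 and -2.84. In vivo over day 3, FPKM was 3.43-fold and 5.76-fold for Cd74 and 5.72-fold and 15.6-fold for H2-Aa without and with IL-1b, and all 4 genes were counted as higher in both arms. Ciita, the coactivator needed for class II transcription, was under 1 FPKM in all 6 libraries.

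Because 8 members were at 5 FPKM or more in both day 3 libraries, they would have been compared whatever their in vivo value. Of these, the 4 class II genes were higher in vivo in both arms, Fcer1g was higher with IL-1b only, and Ctss, Lgals3 and Ncf1 were counted in neither. At the other end, 12 members were listed at 0 in both day 3 libraries, and 11 of them were above 0 in both in vivo libraries.

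The same libraries were also fitted in limma on log2(FPKM + 1), with the 4 poly(A) libraries and the arms as pairs, adjusting over all 8901 symbols by Benjamini-Hochberg. Of the 31 members in that fit 26 were higher in vivo and none was lower at an adjusted p of 0.05, where 4.26% of all symbols were higher and 0.326% lower, or 4.58% in all. For the 22 members that entered the fit only through their in vivo values, Lyz2, S100a8 and C1qc among them, the count and the p-values are a description and support nothing. Of the 9 with at least 5 FPKM in a day 3 library, 6 were called (S100a9, Fcer1g, H2-Aa, H2-Ab1, H2-Eb1 and Cd74), and Ctss, Lgals3 and Ncf1 were not. Lyz2 rose by 8.65 ± 0.37 (SE) on the log2 scale (limma adjusted p = 2.2e-09), S100a8 by 4.75 ± 0.36 (limma adjusted p = 7.3e-07), C1qc by 4.51 ± 0.39 (limma adjusted p = 2.5e-06), and Cd74 by 2.14 ± 0.37 (limma adjusted p = 0.0020), each in 2 of 2 arms. Ctss changed by 0.53 ± 0.36 (limma adjusted p = 0.66) and Lgals3 by 0.11 ± 0.36 (limma adjusted p = 0.95). The fit has 1 residual degree of freedom, so its spread comes mostly from the other genes, and these p-values treat the arms as replicates of the stage. After quantile normalization 3 of the 26 kept the call, namely Lyz2, Retnlg and S100a8. The share of all symbols called higher was then 0.112%, and 30 of the 31 members were above 0, with a median log2 difference of 2.38 against 2.98 before.

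**Figure D3:**
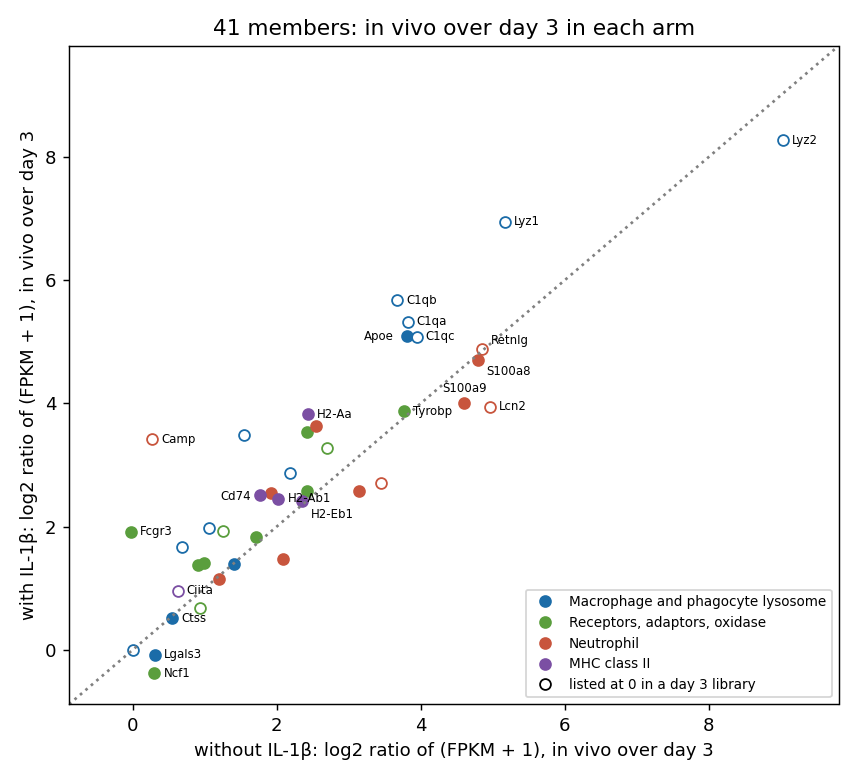
log2 ratio of (FPKM + 1), in vivo over day 3, for the 41 members without IL-1b (x axis) and with IL-1b (y axis), coloured by role; open circles are listed at 0 in a day 3 library, so their ratio depends on the added 1, and the dotted line marks equal ratios. Lyz2 lies at 9.03 and 8.27, Cd74, H2-Aa, H2-Ab1 and H2-Eb1 lie between 1.76 and 3.83, and Ctss, Lgals3 and Ncf1 lie near 0.

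The second comparison set the in vivo libraries beside each other. With IL-1b, 8 of the 41 members were higher and none was lower, where 6.23% of all 8639 compared symbols were higher and 3.48% lower. The 8 were Lyz1, Lyz2, Csf1r, C1qa, C1qb, Apoe, Lcn2 and Cd74. The 31 members compared had a median log2 ratio of 0.85, against 0.03 for all compared symbols, with 25 above 0 and 6 below. Of the 31, 26 reached 5 FPKM in both libraries. Csf1r, Fcgr3, Mpeg1, Camp and Ltf entered only through their value with IL-1b, so their ratios were bound to lie above 0. The counts and medians, here and by role group below, therefore describe the members and are no test.

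The role groups gave different values. Of 11 macrophage genes compared, 6 were higher and the median log2 ratio was 1.51. FPKM with IL-1b was 3.10-fold that without for Lyz2, 3.51-fold for Lyz1, 3.43-fold for Apoe, 5.38-fold for Csf1r, 2.98-fold for C1qa and 4.26-fold for C1qb. C1qc, at 2.28-fold, had overlapping intervals and was not counted, and the summed C1q subunits were 3.11-fold. The summed macrophage genes stood at 777 and 2185 FPKM, and without Lyz2 at 256 and 572 FPKM, so the higher sum was not carried by Lyz2 alone. Ctss (1.15-fold), Lgals3 (0.98-fold) and Cd68 (1.25-fold) were at similar levels in the 2 libraries.

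Of 9 neutrophil genes compared, 1 was higher, Lcn2 at 2.37-fold, and the median log2 ratio was 0.03 with 5 above 0 and 4 below. The summed S100a8 and S100a9 stood at 224 and 223 FPKM. Il1b at 16.5 and 8.17 FPKM and Csf3r at 9.96 and 5.53 FPKM had lower values with IL-1b, and Ngp and Camp had higher ones, none of them counted. No receptor or adaptor of the 7 compared was counted, with a median of 0.63. Ncf1 had the lowest ratio among these, at 0.52-fold with intervals that did not overlap, short of the size set for a call. Of the 4 class II genes compared, Cd74 was higher at 2.12-fold, and H2-Aa, H2-Ab1 and H2-Eb1 were at 1.81-fold, 1.84-fold and 1.61-fold with intervals apart but under the size set for a call. Whether the role groups differ from each other cannot be tested with 1 library in each arm.

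**Figure D4:**
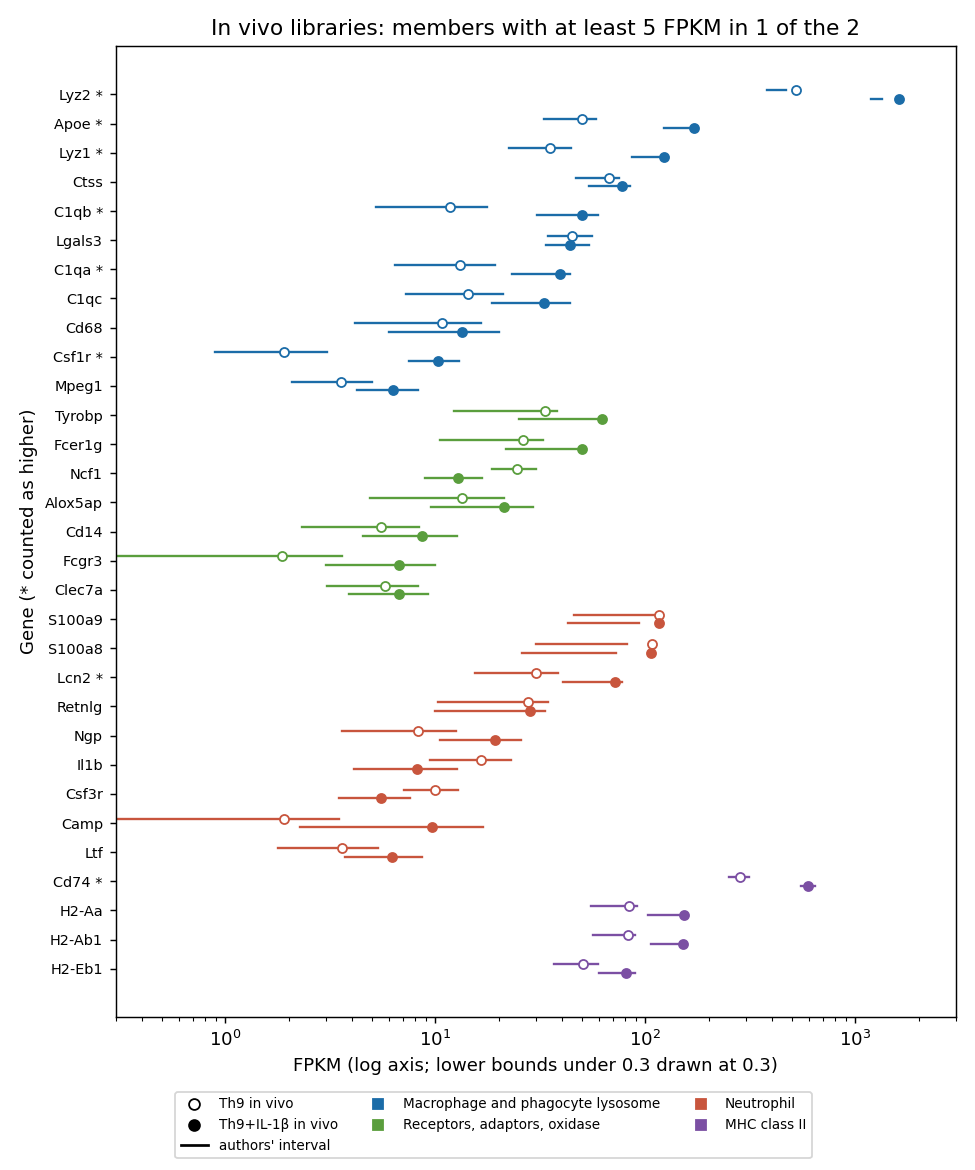
FPKM (log axis) of the 31 members with at least 5 FPKM in an in vivo library, without IL-1b (open circles) and with IL-1b (filled circles), with the deposited intervals as lines and colour giving the role; asterisks mark the 8 counted as higher. The macrophage genes at the top lie apart for Lyz2, Apoe and Lyz1, and the S100a8 and S100a9 pairs overlie each other.

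Markers of other cells were compared between the same in vivo libraries, and their lists did not all go in the same direction. Of all compared symbols 6.23% were higher with IL-1b and 3.48% lower. All 10 alveolar and airway epithelium markers were compared, 9 were higher with IL-1b and the median log2 ratio was 1.70. Their sum was 6764 and 17650 FPKM in vivo against 18.4 and 18.3 FPKM at day 3, led by the surfactant gene Sftpc at 3512 and 10010.5 FPKM. Of the 10 stroma and endothelium markers 9 were compared and 8 were higher, with sums of 93.6 and 503 FPKM. Alveolar macrophage markers summed to 51.2 and 76.4 FPKM with 1 of 4 compared higher, and 2 of the 8, Ear1 and Fabp4, were listed at 0 without IL-1b. B cell markers summed to 69.3 and 41.9 FPKM, with 1 lower and Cr2 and Ebf1 listed at 0 with IL-1b. Dendritic cells also bear class II, and their markers summed to 170 and 371 FPKM. Ccr7 alone gave 51.9% and 47.0% of these sums and already stood at 107 FPKM at day 3 without IL-1b. Only 4 of the 10 markers were compared, and 1 was higher, the chemokine gene Ccl22 at 61.6 and 143 FPKM. The median log2 ratio of these 4 was 1.09, and Zbtb46, a defining marker, was listed at 0 without IL-1b. The same markers already summed to 242 and 312 FPKM at day 3. In vivo over day 3 none of them was counted as higher, and Batf3 was lower with IL-1b. The median of the 10 markers was 0.83 and 1.36 FPKM in vivo. Erythroid and platelet markers summed to 393 and 745 FPKM, with Hba-a2 and Ppbp of 5 compared higher. Hba-a2 was listed at 0 without IL-1b and Hbb-b1 in both libraries. Mast cell, basophil and eosinophil markers summed to 6.98 and 36.9 FPKM, with Mcpt8 of 2 compared higher and 5 and 2 of the 10 listed at 0. The T cell markers had 0 of 12 counted and sums of 2562 and 2480 FPKM. The limit of 5 FPKM was reached without and with IL-1b by 5 and 9 stroma and endothelium markers and by 3 and 5 erythroid and platelet markers. It was reached by 0 and 2 markers of the mast cell list and by 5 and 4 of the B cell list. A marker that entered through 1 library only had a ratio of fixed sign, so these counts and medians are no test. The part of the marked cells in the members' values was not tested.

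At 1 h and at day 3 the members gave few differences between the arms. At 1 h 8 members were compared, and Tyrobp was higher with IL-1b, where 7.72% of 933 compared symbols were higher and 0.214% lower. Lyz2 at 7.07 against 2.36 FPKM and S100a8 at 7.52 FPKM against a listed 0 had overlapping intervals and were not counted. The 4 class II genes compared lay between -0.09 and 0.56 on the log2 scale. All compared symbols had a median of 0.30 at 1 h, and the 8 members one of 0.50. At day 3, 9 members were compared and none was counted, where 1.29% of 7962 symbols were higher and 2.15% lower. Their log2 ratios ran from -0.54 for H2-Aa to 0.78 for Fcer1g, with a median of 0.35 against -0.05 for all compared symbols. At day 3 the log2 ratio ran with transcript length across genes, and with that trend removed by median transcript length the members' median was 0.33 over 9 members. Removed by the longest transcript, a choice made after seeing the data, it was 0.06 over 8.

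Across the 3 stages, limma with stage as a term called 0 of 31 members for IL-1b, and 0 of all 8946 symbols (0.0%). Before adjustment, 3 members (Lyz2, Tyrobp and Lcn2) and 320 symbols, 3.58% of all, passed the 0.05 threshold of limma. Lyz2 had a log2 difference of 1.76 ± 0.34 (SE) and a higher value with IL-1b in 3 of 3 stages (limma adjusted p = 0.94). Without the 1 h stage, limma called Lyz2 alone among the members, at 2.01 ± 0.37 (limma adjusted p = 0.029), where 0.382% of 8901 symbols were called and 0.0786% were lower. Before adjustment, 7 members and 7.73% of symbols passed the 0.05 threshold there. That value joins a listed 0 at day 3 without IL-1b to the in vivo ratio.

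The third comparison, day 3 over 1 h, joins the change of stage to a change from ribosomal RNA depletion to poly(A) selection, and the 2 cannot be told apart. Ctss, Fcer1g, Lgals3 and Ncf1 were higher at day 3 in both arms, where 95.7% and 95.5% of all compared symbols were higher. H2-Aa was lower with IL-1b (27.9 to 9.77 FPKM), where 0.595% of symbols were lower. The other class II values differed by less than the size set for a call. Scaling to a median ratio of 1 was a shift of 3.46 and 3.32 on the log2 scale. After it, Ctss, Fcer1g, Lgals3 and Ncf1 were counted as higher in neither arm, and Cd74, H2-Aa, H2-Ab1 and H2-Eb1 were lower in both. With IL-1b, Lyz2, Tyrobp and S100a8 also had scaled log2 ratios of -2.50, -2.51 and -2.70. The share of all symbols lower after this scaling is not given, so nothing is read from these counts. Fcer1g, Lgals3 and Ncf1 were then under 5 FPKM and no longer compared, so 5 members were compared in place of 8 without IL-1b and 8 in place of 12 with it. Lgals3 still had a log2 ratio of 2.10 and 1.18, while Ctss, which was compared, had one of -0.66 and -0.44. Against the T cell marker sum, the class II sum went from 153% and 131% at 1 h to 4.74% and 5.27% at day 3 and to 19.5% and 39.6% in vivo. B cell markers, which belong to another class II-bearing cell, summed to 25.2 and 26.7 FPKM at 1 h, or 28.7% and 23.8% of the T cell sum, against 1.57% and 1.27% at day 3. Their part was not tested.

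Other genes of the same pathways were compared by the same rule. In vivo over day 3, 2.13% and 12.0% of all compared symbols were higher, without and with IL-1b. Of 12 further class II pathway genes, 11 were compared in vivo over day 3, of which 0 were higher without IL-1b and 2, Ctsl and Lgmn, with it. H2-Oa was lower with IL-1b in vivo at 12.7 against 41.7 FPKM, and Ctsl and Lgmn, proteases of the endosome, were higher. H2-DMa, which loads peptide on class II, stood at 176 and 162 FPKM at day 3 and 198 and 199 FPKM in vivo. Of 20 further macrophage and monocyte genes, 7 and 8 were compared in vivo over day 3. By the rule 2 and 3 were higher, while 2 and 3 had a log2 ratio below 0. The highest of the 20, Cyba, stood at 291 and 403 FPKM at day 3 and at 321 and 316 FPKM in vivo. The summed list stood at 404 and 554 FPKM at day 3 and at 490 and 553 FPKM in vivo, and Cyba gave from 57.2% to 72.7% of it. Without Cyba the sum stood at 113 and 151 FPKM at day 3 and at 169 and 237 FPKM in vivo. At least 1 FPKM was reached by 6 and 6 of the 20 at day 3 and by 14 and 17 in vivo. The myeloid transcription factor gene Cebpa, listed under 1 FPKM at day 3, stood at 9.52 and 27.2 FPKM in vivo, and Sfpi1, which encodes PU.1, at 10.7 and 15.0 FPKM. Of 17 further neutrophil genes, 4 of 4 compared without IL-1b and 3 of 5 with it were higher in vivo. Only 1 of the 17, Pglyrp1, reached 5 FPKM at day 3 in either arm. The others were compared only because of their in vivo values, so these counts are no test. The haptoglobin gene Hp, listed at 0 in both day 3 libraries, reached 36.9 and 46.3 FPKM. The precursor granule genes Mpo, Elane and Prtn3 were at or under 2.65 FPKM in all libraries, while Ctsg, a granule protease gene, stood at 8.13 FPKM in vivo without IL-1b and was counted as higher there than at day 3, where it stood at 1.38 FPKM. With IL-1b Ctsg was at 4.54 FPKM at day 3 and 1.80 FPKM in vivo.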

How the data were processed

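FPKM values and their interval bounds are those the authors deposited, 1 file per library with 23700 entries. TopHat and mm9 are named in the submitters' processing notes. The sources used here do not give the program that made the FPKM values, the depth or the level of the bounds. Depth is therefore unknown, and no counts were available for a count test. Per the labels, libraries were sequenced on a MiSeq. Entries with status OK were summed by symbol, which left out 285 entries per file. Intervals that touched counted as overlapping. Where FPKM is listed at 0 no fold is given.

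limma 3.58.1 in R 4.3.3 was run on log2(FPKM + 1) for symbols that reached 5 FPKM in any library of the fit. The 2 rules were tested on simulated data. Promoters were taken from a RefSeq table (GRCm38.p6) and transcripts and their lengths from GENCODE M21; 32 of the 41 members had a promoter entry and all 41 a length. Python 3.11.15 was used.

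The members and all gene lists were chosen with earlier results of these data known. Values in every library were to be given for members counted in an IL-1b comparison and for the 3 highest in each role group; those of the other members were added after they had been seen. Pseudocounts, minimum levels, fold limits, scalings, length trends, zeros and stages were varied as alternatives.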

Additional observations from a re-analysis of the deposited data

How the results depend on the processing

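Of 196 alternative counts of members, 165 stayed within 1.5 times the reported one and 31 did not. For IL-1b at 1 h the 1 higher member became 0 with a minimum of 10 FPKM and 0 with symbols listed at 0 left out, and 3 (Lyz2 and S100a8 added) with intervals not used. At day 3 the 0 higher became 2 (Lcn2 and Lyz2) with no filter on low values. In vivo the 8 higher became 5 at a fold of 3 (C1qa, Cd74 and Lcn2 lost), and the 0 lower became 1 (Ncf1) at a fold of 1.5. For day 3 over 1 h, the 4 higher in each arm became 0 after scaling to the median ratio, after scaling to upper quartiles and after either removal of the length trend, and 1 without IL-1b with symbols at 0 left out. Under the scalings and trend removals Fcer1g, Lgals3 and Ncf1 fell under 5 FPKM and were not compared, except Lgals3 with IL-1b under upper quartiles; Lgals3 kept log2 ratios from 0.55 to 2.51 and Ctss, still compared, from -1.20 to -0.14. The 0 lower without IL-1b became 4 under each of these scalings and trends, and 1 (Cybb) with no filter. The 1 lower with IL-1b became 6 under them, 2 with no filter, 2 with intervals not used and 0 at a fold of 3. The share of all symbols lower under these alternatives is not given, so nothing is read from these counts. In vivo over day 3, leaving out symbols at 0 gave 12 higher for 21 and 17 for 27. The limma count of 0 for IL-1b became 1 without the 1 h stage, and that of 26 for in vivo over day 3 became 3 after quantile normalization (0.112% of all symbols higher) and stayed between 20 and 26 otherwise. Other causes were not tested.

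The spread allowed to vary with level in limma, and the length trend by the longest transcript, were chosen after seeing the data; by the median transcript length, as planned, the members' median at day 3 was 0.33. No paired analysis was possible because the titles carry no replicate numbers and each group is 1 library, other than the limma fits that paired libraries by arm or by stage. Depth is unknown, so a value listed at 0 sets no limit on the RNA present, and the 1 h libraries, with the widest intervals, limit what could be compared there.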
